A study of Rattus norvegicus with 11 samples.

Results

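The 7 genes described here encode the Fc gamma receptors Fcgr1a, Fcgr2b and Fcgr3a, their signalling adaptor Fcer1g, the kinase Syk, and the receptor and ligand pair Sirpa and Cd47. They were taken from the count table by symbol, and all 7 were found among the 30560 genes listed there and passed the filter on low counts that left 15742 genes for testing. Bulk RNA of the striatum was sequenced at day 3 in 11 adult male Sprague-Dawley rats, with one library per rat. Normal rats (n = 2) received neither an injection nor an aspiration, so the controls hold no sham surgery, and the study's text gives 3 rats per group. Rats with common hemorrhage (IC, n = 3) had 0.2 U of bacterial collagenase VII-S in 1.0 μL of saline injected into the right striatum, and rats with severe hemorrhage (IS, n = 3) had 0.6 U in 3.0 μL, so that dose and volume differed together. Rats with severe hemorrhage and hematoma aspiration (IS-HA, n = 3) were given the IS dose, were anesthetized again after 6 h and had 150 μL withdrawn through a catheter. Neither IC nor IS rats had a mock aspiration. The hemorrhage was produced by an enzyme that breaks the vessel wall and not by injected blood.

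Fc gamma receptors bind the constant region of IgG on coated particles. The activating receptors, here Fcgr1a and Fcgr3a, hold no signalling motif of their own and pair with the Fcer1g chain, whose ITAM (a tyrosine motif) is phosphorylated by Src family kinases and then binds Syk, which starts the actin remodelling of phagocytosis. Fcgr2b carries an inhibitory motif (an ITIM) that recruits phosphatases and restrains this signal. Sirpa, a receptor of myeloid cells that neurons carry as well, also recruits phosphatases when it binds Cd47, a protein of nearly every cell, erythrocytes included, that marks the cell as self. In brain tissue, microglia, infiltrating monocytes and neutrophils carry Fc receptors.

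On chromosome 13, the RefSeq annotation of the rat places Fcgr2b, Fcgr3a and Fcgr2a next to each other, and Fcgr2al1 follows Fcgr2a. It gives CD16-2 and Fcgr4 as other names of rat Fcgr3a, so its symbol does not stand for the human gene of that name in every source. Fcgr1a lies on chromosome 2, Fcer1g on 13, Syk on 17, Sirpa on 3 and Cd47 on 11. RefSeq promoter sequences (GRCr8, 250 bases before to 50 after a gene's start, on the gene's strand) were found for 3 of the 7 genes, and all 3 are shown. They belong to a receptor, the kinase and the ligand, whose RNA moved in different directions. The promoter set used had no entry for Fcgr1a, Fcgr2b, Fcer1g and Sirpa. Capitals mark GAGGAA or its reverse complement TTCCTC, the core letters of sites that the myeloid factor PU.1 is known to bind.
Fcgr3a, chr13:85782386-85782685 (+): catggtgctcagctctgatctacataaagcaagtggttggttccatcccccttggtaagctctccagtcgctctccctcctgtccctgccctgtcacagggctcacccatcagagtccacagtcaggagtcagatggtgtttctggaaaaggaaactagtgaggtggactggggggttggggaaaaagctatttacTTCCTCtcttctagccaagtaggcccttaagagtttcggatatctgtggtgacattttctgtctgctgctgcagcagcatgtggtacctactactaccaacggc
Syk, chr17:12813224-12813523 (-): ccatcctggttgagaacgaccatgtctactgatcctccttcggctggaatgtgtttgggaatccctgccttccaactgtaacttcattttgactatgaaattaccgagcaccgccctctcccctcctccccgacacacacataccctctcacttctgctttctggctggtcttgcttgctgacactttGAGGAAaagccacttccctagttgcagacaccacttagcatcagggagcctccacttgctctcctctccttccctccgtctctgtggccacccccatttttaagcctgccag
Cd47, chr11:64438139-64438438 (-): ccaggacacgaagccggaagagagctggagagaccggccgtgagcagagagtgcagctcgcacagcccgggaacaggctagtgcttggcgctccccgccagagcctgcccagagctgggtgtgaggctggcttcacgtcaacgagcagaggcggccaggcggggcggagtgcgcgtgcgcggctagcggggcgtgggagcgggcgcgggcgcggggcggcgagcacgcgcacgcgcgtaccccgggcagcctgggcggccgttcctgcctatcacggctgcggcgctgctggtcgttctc
The Fcgr3a window held 1 TTCCTC and the Syk window 1 GAGGAA, while the letters were not in the Cd47 window. Of 33469 rat promoters of the same length, 27.6% held GAGGAA on either strand. The longer GAGGAAGT, searched on both strands and overlapping the first, was in the Fcgr3a window alone of the 3, as in 2.42% of all promoters. The Cd47 window held 38 CG dinucleotides, the Syk window 6 and the Fcgr3a window 3, where the median over all promoters was 7. A match of letters describes the sequence and not binding.

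The values are counts of reads assigned to genes and TPM (counts divided by gene length and scaled to 1 sum in every rat, so that genes can be compared). Total counts ran from 6701301 to 18817645 per rat, and 3 counts, taken as the floor of detection, stood at 0.159 to 0.448 CPM (counts scaled by library size). All members were above that floor in every rat, the lowest being 27 counts of Fcgr3a in a Normal rat. Normal rats had the deepest libraries as a group (median 17933189.5 counts, against 14761168, 10867450 and 10139653 in IC, IS and IS-HA). IS-HA replicate 2 (6701301 counts) and IS replicate 4 (7448205) had the smallest libraries of their groups. The other IS-HA rats had 15083520 and 10139653 counts, so replicate 2 did not stand apart by depth. Leaving out IS-HA replicate 2 raised the number of genes called between IS and IC from 0 to 1015 higher and 1226 lower. IS replicate 4 had the lowest neuron markers of all rats (786 TPM, against 1713 and 2309 TPM in the other IS rats) and the highest lymphocyte and NK markers (452 TPM, against 169 TPM in each of the others). Results that rest on either rat are given with and without it. Differences were tested with edgeR's quasi-likelihood test in one fit over the 4 groups, and a gene is called at a Benjamini-Hochberg adjusted p under 0.05. Same-numbered rats are different animals, and the labels do not say whether rats were processed in batches. Markers of striatal neurons were present in every rat, at a summed 6405 and 6823 TPM in Normal, 2824 to 5584 TPM in IC, 1376 to 3625 TPM in IS and 1383 to 3076 TPM in IS-HA.

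The 3 Fc gamma receptors, Fcer1g and Syk were 8.93 to 60.2-fold higher in IC, IS and IS-HA than in Normal. The RNA of Sirpa and Cd47 stayed within a factor of 1.65 of Normal. Normal rats had no injection, so the bleeding and the injection itself cannot be told apart. In IS against Normal, all 7 genes were called, 6 higher and 1, Cd47, lower, where 24.8% of all genes tested were called higher and 24.2% lower. In IC against Normal, 5 genes were called higher (13% of all genes) and 0 lower (4.64%), and in IS-HA against Normal 5 were called higher (19.5%) and 0 lower (12.1%). At an unadjusted p under 0.05, 0 members were lower in IC (14.5% of all genes) and 1, Cd47, was lower in IS-HA (19.1%), and DESeq2 called 0 members lower in both (9.85% and 17% of all genes). In normalized counts, 6, 6 and 5 members had every rat of IC, IS and IS-HA above both Normal rats, where 32.4%, 37.6% and 31.7% of all genes did, and 1 member each, Cd47, had every rat below, where 31.3%, 36.9% and 29.2% of all genes did. These 3 comparisons share the same 2 Normal rats. The 5 genes of the receptor arm were called in all 3 comparisons and under every alternative tried.

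**Figure D1:**
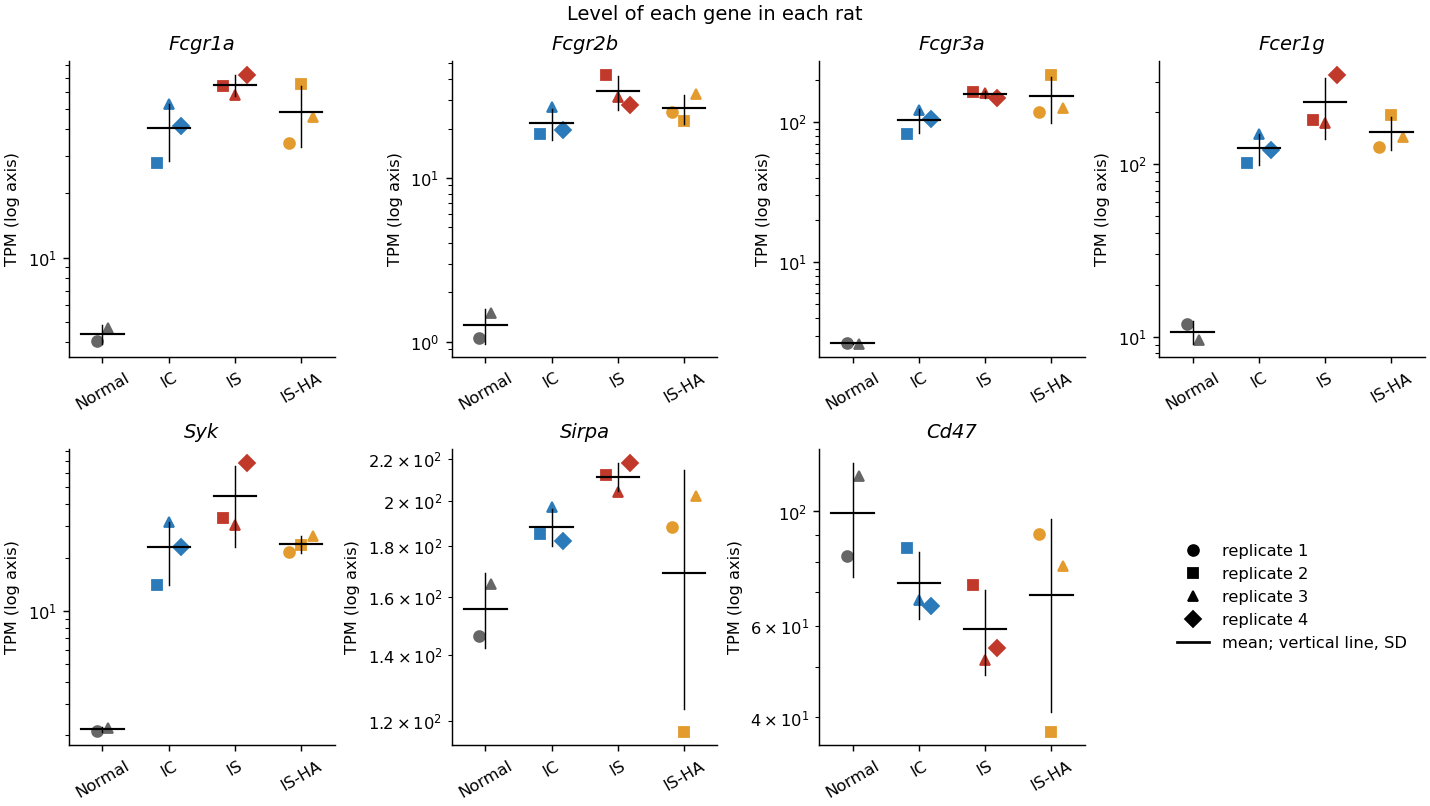
Level of each of the 7 genes in each rat, as TPM on a log axis, by group. Points are rats, horizontal lines means and vertical lines the SD. Fcgr1a, Fcgr2b, Fcgr3a, Fcer1g and Syk lie far above the Normal rats in every hemorrhage rat, Sirpa spans 117 to 218 TPM and Cd47 37.5 to 117 TPM over all rats.

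Fcgr1a (ENSRNOG00000021199), the high-affinity receptor that binds single IgG molecules, stood at 4.06 and 4.69 TPM in Normal replicates 1 and 3. It reached 27.9, 52.5 and 41.4 TPM in IC replicates 2, 3 and 4, and 63.7, 58.1 and 72.4 TPM in IS replicates 2, 3 and 4. In IS-HA replicates 1, 2 and 3 it was 34.5, 65.1 and 45.7 TPM. Every hemorrhage rat lay above both Normal rats, all IS rats lay above all IC rats, and the IS-HA rats spanned the range from IC to IS. The log2 fold change against Normal was 3.16 ± 0.43 (SE) in IC, 3.91 ± 0.44 in IS and 3.50 ± 0.43 in IS-HA, with edgeR adjusted p of 7.0e-04, 1.1e-04 and 3.2e-04.

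Fcgr3a (ENSRNOG00000024382), an activating receptor of lower affinity, showed the largest rise of the 7 genes. It was nearly equal in the 2 Normal rats, at 2.65 and 2.62 TPM, and measured 82.6, 123 and 105 TPM in the IC rats. The IS rats had 165, 161 and 148 TPM, a narrow range, whereas the IS-HA rats had 118, 219 and 126 TPM. The single highest value was therefore in IS-HA replicate 2, with the other IS-HA rats below all IS rats. Its log2 fold change against Normal was 5.23 ± 0.45 in IC, 5.91 ± 0.46 in IS and 5.91 ± 0.46 in IS-HA (edgeR adjusted p = 1.2e-04, 3.1e-05 and 6.4e-05), and without IS-HA replicate 2 the last became 5.39 (adjusted p = 4.7e-06).

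Fcgr2b (ENSRNOG00000046452), the inhibitory receptor, rose alongside the activating ones. The 2 Normal rats had 1.06 and 1.49 TPM, the lowest Normal levels of the set. The IC rats had 18.6, 27.1 and 19.5 TPM, the IS rats 42.8, 31.0 and 27.9 TPM and the IS-HA rats 25.2, 22.2 and 32.6 TPM. IS and IC rats lay next to each other without overlap, the highest IC rat at 27.1 and the lowest IS rat at 27.9 TPM. The log2 fold change against Normal was 4.03 ± 0.27 in IC, 4.74 ± 0.28 in IS and 4.37 ± 0.27 in IS-HA (edgeR adjusted p = 4.5e-05, 3.1e-05 and 5.5e-05), with the smallest standard errors of the 5 raised genes.

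Near-identical genes could share reads with these receptors, and how multiply aligned reads were treated is not given in the sources used here. The neighbours Fcgr2a and Fcgr2al1 were high in the same rats, with means of 3.83 ± 0.745 and 1.59 ± 0.275 TPM in Normal (SD, n = 2) and 99.1 ± 46.6 and 65.1 ± 32.1 TPM in IS (SD, n = 3). The split of reads among Fcgr2b, Fcgr3a and these copies is therefore uncertain.

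Fcer1g (ENSRNOG00000024159), the chain through which Fcgr1a and Fcgr3a signal, had the highest Normal level of the receptor arm, at 11.8 and 9.55 TPM. It rose to 101, 150 and 120 TPM in IC, 181, 173 and 330 TPM in IS and 126, 192 and 144 TPM in IS-HA. IS replicate 4 stood well above the other rats, and the lowest IS rat was above the highest IC rat. The log2 fold change against Normal was 3.47 ± 0.44 in IC, 4.45 ± 0.46 in IS and 3.87 ± 0.45 in IS-HA (edgeR adjusted p = 4.7e-04, 7.0e-05 and 2.1e-04), and without IS replicate 4 the IS value became 4.01 (adjusted p = 1.0e-04).

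Syk (ENSRNOG00000012160), the kinase that binds the phosphorylated chain, was at 2.1 and 2.2 TPM in Normal. It was 14.0, 31.6 and 22.9 TPM in the IC rats and 33.6, 30.4 and 68.6 TPM in the IS rats, of which replicate 4 was again the highest. The IS-HA rats were close together at 21.4, 23.4 and 26.6 TPM and lay below every IS rat. Its log2 fold change against Normal was 3.35 ± 0.47 in IC, 4.40 ± 0.50 in IS and 3.46 ± 0.48 in IS-HA (edgeR adjusted p = 8.8e-04, 1.1e-04 and 5.7e-04), and without IS replicate 4 the IS value became 3.86 (adjusted p = 1.0e-04).

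Sirpa (ENSRNOG00000004763), the checkpoint receptor, was abundant before any hemorrhage, at 146 and 165 TPM in Normal, higher than any Fc receptor in those rats. It was 185, 197 and 182 TPM in IC and 212, 204 and 218 TPM in IS. In IS-HA it was 188, 117 and 202 TPM, with replicate 2 below both Normal rats. IS rats lay above all IC rats and IC rats above both Normal rats, but by small steps, with mean levels 1.36 times Normal in IS and 1.21 times in IC. The log2 fold change in IS against Normal was 0.46 ± 0.18 (edgeR adjusted p = 0.0496), a call lost in 16 of 21 alternatives, where the log2 fold change was 0.39 to 0.59 over all 21 and the adjusted p 0.0119 to 0.201. Among the 16 were the fits without either Normal rat (adjusted p = 0.188 and 0.17). In IC the log2 fold change was 0.22 (95% interval -0.17 to 0.61, edgeR adjusted p = 0.401) and in IS-HA 0.08 (-0.30 to 0.47, adjusted p = 0.737). The paralogs Sirpal1, Sirpb2 and Sirpb3 held at most 23, 2 and 11 counts in any rat.

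Cd47 (ENSRNOG00000001964), the ligand of Sirpa, had the one negative estimate against Normal, in all 3 comparisons. It was at 81.9 and 117 TPM in Normal, 85.0, 67.4 and 65.6 TPM in IC, 72.1, 51.6 and 54.4 TPM in IS and 90.4, 37.5 and 78.6 TPM in IS-HA. The IS rats lay below both Normal rats, whereas 1 rat each of IC and IS-HA had more TPM than Normal replicate 1. Cd47 was 1.65-fold lower in IS than in Normal, a log2 fold change of -0.73 ± 0.25 (edgeR adjusted p = 0.0345). The call was lost in 7 of 21 alternatives, with an adjusted p of 0.247 without Normal replicate 3, 0.0501 without IC replicate 4, 0.105 without IS replicate 3 and 0.0773 without IS replicate 4. The other losses were with library size alone (0.0991), limma on log2(TPM + 1) (0.0989) and the replicate number as a block (0.253). In IC the log2 fold change was -0.50 (95% interval -1.06 to 0.06, edgeR adjusted p = 0.186) and in IS-HA -0.58 (-1.14 to -0.02, adjusted p = 0.101), the latter called (log2 fold change -0.77, adjusted p = 0.0463) without IS-HA replicate 1 and at -0.36 (adjusted p = 0.197) without IS-HA replicate 2.

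**Figure D2:**
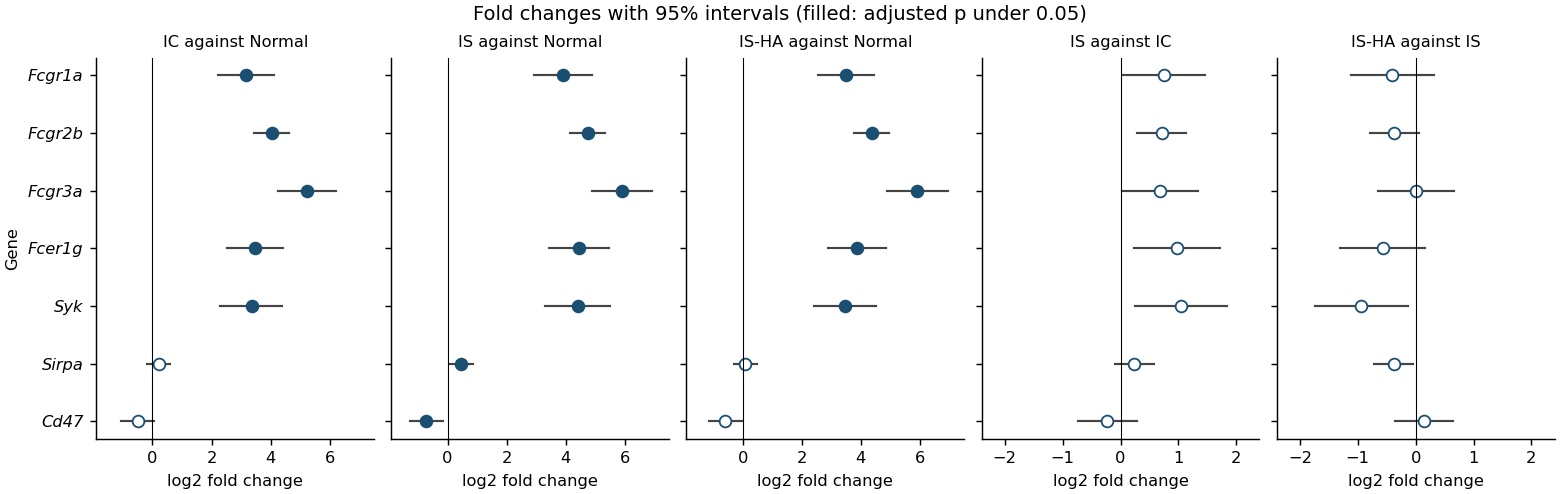
Log2 fold changes of the 7 genes from edgeR, with 95% intervals, in 5 comparisons; filled points passed an adjusted p under 0.05. The horizontal axis spans a wider range in the 3 comparisons with Normal, where Fcgr3a reaches 5.91, than in IS against IC and IS-HA against IS, where no point is filled.

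Whether a larger hemorrhage went with more of these transcripts is addressed by IS against IC. Of the 7 genes, 6 had every IS rat above every IC rat in normalized counts, where 19.2% of all genes did, and the excess was 1.60 to 2.07-fold for the Fc receptors, Fcer1g and Syk. None was called: edgeR called 0 of 7 and 0% of all 15742 genes in either direction, while 5 members were higher at an unadjusted p under 0.05, as were 10.5% of all genes. The log2 fold change was 0.75 (95% interval 0.04 to 1.46) for Fcgr1a, 0.71 (0.29 to 1.13) for Fcgr2b and 0.68 (0.02 to 1.34) for Fcgr3a, with edgeR adjusted p of 0.212, 0.147 and 0.217. For Fcer1g it was 0.98 (0.24 to 1.72) and for Syk 1.05 (0.25 to 1.84), with edgeR adjusted p of 0.165 and 0.166. Without IS replicate 4 the estimates were 0.54 for Fcer1g and 0.51 for Syk (edgeR adjusted p = 0.501 and 0.511). Syk overlapped between the groups in TPM, where IS replicate 3 lay under IC replicate 3. Sirpa (0.24, -0.10 to 0.58) and Cd47 (-0.23, -0.73 to 0.28) had intervals on both sides of 0.

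The number of calls in IS against IC depended on the test and on one rat of another group. DESeq2's Wald test called Fcgr2b (log2 fold change 0.72, adjusted p = 0.0199) and 2.98% of all genes higher. The voom method of limma, with quality weights, called Fcgr2b (0.76, adjusted p = 0.025) and Fcgr3a (0.72, adjusted p = 0.0293), with 6.26% of all genes higher, and limma on log2(TPM + 1) called none. In the edgeR fit without IS-HA replicate 2, Fcgr2b (0.71, adjusted p = 0.0344), Fcgr3a (0.68, adjusted p = 0.0256) and Fcer1g (0.98, adjusted p = 0.045) were called, with 6.38% of all genes higher. That fit tested 15897 genes in place of 15742, and the cause of the added calls was not tested.

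What removal of the hematoma went with is addressed by IS-HA against IS. edgeR called 0 of the 7 genes, and 1 of all genes higher (0.00635%) and 0 lower. At an unadjusted p under 0.05, 2 members were lower, as were 3.36% of all genes: Syk (log2 fold change -0.94, 95% interval -1.73 to -0.14, edgeR adjusted p = 0.543) and Sirpa (-0.38, -0.72 to -0.04, adjusted p = 0.55). For Syk, Sirpa and Fcgr2b all IS-HA rats were below all IS rats in normalized counts, where 5.42% of all genes were. In TPM Fcgr2b overlapped between the groups, with IS-HA replicate 3 at 32.6 TPM and IS replicate 4 at 27.9 TPM. Fcgr1a (-0.41, -1.12 to 0.31), Fcgr2b (-0.37, -0.79 to 0.05) and Fcer1g (-0.57, -1.31 to 0.16) had lower estimates with intervals that include 0, and Cd47 was at 0.15 (-0.36 to 0.65). Without IS replicate 4 the estimates were -0.40 for Syk and -0.14 for Fcer1g (edgeR adjusted p = 0.999 for both).

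The estimate for Fcgr3a in this comparison turned on one rat. Its log2 fold change was 0.00 (95% interval -0.65 to 0.66), and without IS-HA replicate 2 it was -0.52 (edgeR adjusted p = 0.0759). Without that rat the estimate was -0.85 for Fcgr1a, -0.37 for Fcgr2b, -0.93 for Fcer1g, -1.06 for Syk and -0.27 for Sirpa, and 0.37 for Cd47, with adjusted p from 0.0716 to 0.229, so that again 0 of 7 were called, where 3.4% of all genes were called higher and 0.975% lower. DESeq2 with all rats also called 0 of the 7, and 0.318% of all genes higher and 0.133% lower.

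Against IC, which had received the smaller dose, the IS-HA rats overlapped for all 7 genes. edgeR called 0 members and 0% of all genes, and DESeq2 0 members, with 0.0635% of all genes higher and 0.0699% lower. The comparison of Fcgr3a (log2 fold change 0.68, 95% interval 0.02 to 1.34, edgeR adjusted p = 0.841) alone had an unadjusted p under 0.05, as did 2.59% of all genes in the higher direction. Without IS-HA replicate 2 this estimate was 0.16. The other estimates lay between -0.14 and 0.40 with all rats. Without IS-HA replicate 2 they lay between -0.10 and 0.33, with Fcer1g at 0.05 in place of 0.40.

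Because Fcgr2b opposes Fcgr1a and Fcgr3a, the levels of pairs of genes were compared within each rat, which removes library size. A set of 4 ratios of TPM was tested between the 9 hemorrhage rats and the 2 Normal rats by two-sided exact permutation tests, for which 0.0364 is the smallest p that 9 against 2 rats allow. All 4 ratios separated the groups without overlap and reached that value (adjusted over the 4 ratios, 0.0364). Leaving out either Normal rat leaves a smallest possible p of 0.2.

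Fcgr2b stood at 0.399 and 0.571 times Fcgr3a in the Normal rats and at 0.102 to 0.259 times in the hemorrhage rats, a log2 difference of -1.32. Set against Fcgr1a the direction was the opposite: Fcgr2b stood at 0.261 and 0.319 times Fcgr1a in Normal and at 0.342 to 0.731 times after hemorrhage, a log2 difference of 0.83. Both ratios depend on how reads were split between Fcgr2b, Fcgr3a and the copies Fcgr2a and Fcgr2al1, which is uncertain. With a pseudocount of 1 TPM in place of 0.1 the second difference was 0.38 (exact permutation p adjusted over the ratios, 0.255). The lowest value of both ratios among hemorrhage rats was in IS-HA replicate 2.

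Set against Fcgr3a, the adaptor Fcer1g rose less, whereas its log2 fold changes against Normal (3.47, 4.45 and 3.87 in IC, IS and IS-HA) were above those of Fcgr1a (3.16, 3.91 and 3.50), a difference that was not tested. Fcer1g was 4.44 and 3.65 times as abundant as Fcgr3a in the Normal rats and 0.876 to 2.24 times as abundant after hemorrhage, a log2 difference of -1.72. IS replicate 4 held the highest ratio, and the remaining 8 hemorrhage rats were at 0.876 to 1.23. In the IC rats the ratio was 1.19 ± 0.0469 (SD, n = 3).

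The ratio of receptor to ligand in the checkpoint pair rose. Sirpa was 1.78 and 1.41 times as abundant as Cd47 in Normal replicates 1 and 3, 2.18, 2.92 and 2.77 times in IC, 2.94, 3.95 and 4.00 times in IS and 2.08, 3.11 and 2.58 times in IS-HA. The log2 difference between hemorrhage and Normal rats was 0.86. IS had the highest ratios, at 3.63 ± 0.597 against 2.62 ± 0.395 in IC and 2.59 ± 0.516 in IS-HA (SD, n = 3 each), although 1 IS-HA rat, replicate 2, lay inside the IS range. Differences among the hemorrhage groups in these ratios were not tested.

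**Figure D3:**
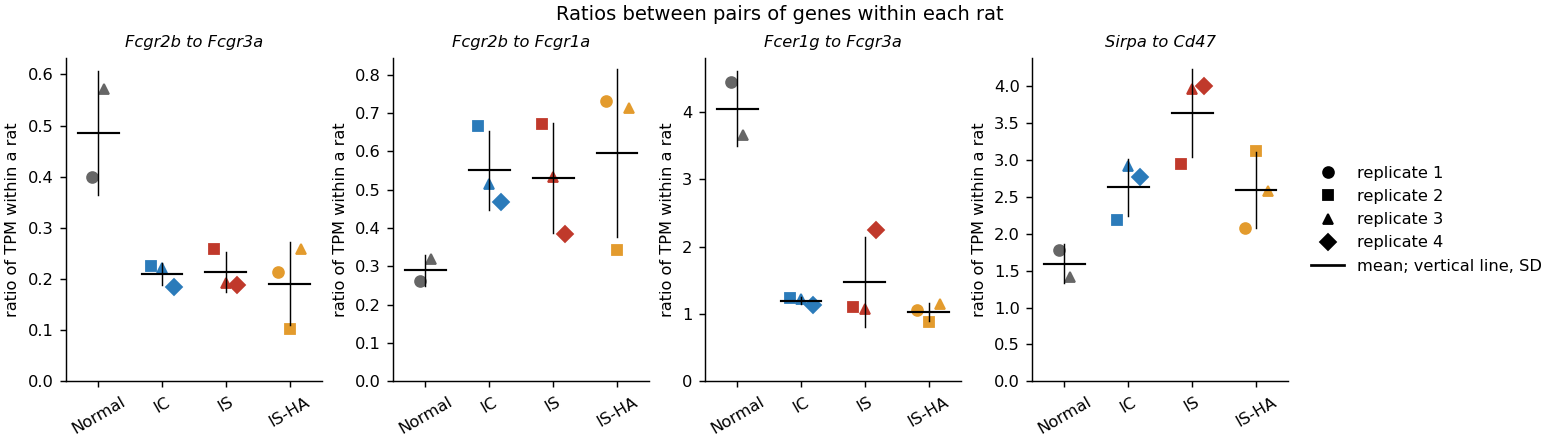
Ratios of TPM within each rat for 4 pairs of genes, on linear axes from 0, by group; points are rats, horizontal lines means and vertical lines the SD. Both Normal rats lie apart from all 9 hemorrhage rats in each panel, above them for Fcgr2b to Fcgr3a and Fcer1g to Fcgr3a and below them for the other pairs.

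The tissue held cells of several kinds, and in bulk RNA more cells of a type and more RNA per cell cannot be told apart. Markers of microglia and macrophages (12 of 12 genes measured, including Aif1, Itgam and P2ry12) summed to 268 to 343 TPM in Normal, 1521 to 1915 TPM in IC, 2070 to 2774 TPM in IS and 1829 to 2348 TPM in IS-HA. Of these 12 genes, 10 were called higher and 0 lower in IS against Normal, where 24.8% and 24.2% of all genes were. The 7 monocyte markers summed to 13.8 to 15.7 TPM in Normal, 93.5 to 164 TPM in IC, 157 to 245 TPM in IS and 115 to 152 TPM in IS-HA. All 7 were called higher in IS against Normal, as were 24.8% of all genes.

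Of 10 neutrophil markers, 6 were tested, and Camp, Mpo, Ngp and Ltf had too few counts, Ltf being at 0 in every rat. The 10 markers summed to 5.03 to 5.23 TPM in Normal, 86.0 to 269 TPM in IC and 504 to 700 TPM in IS. They were at 170, 218 and 864 TPM in the IS-HA rats, the highest being replicate 2. Neuron markers moved the other way, from 3896 and 5035 TPM in Normal to 1707 to 2683 TPM in IC, 786 to 2309 TPM in IS and 1596 to 2911 TPM in IS-HA. Of these 10 genes, 8 were called lower in IS against Normal, as were 24.2% of all genes. In IC against Normal 3 were called lower and in IS-HA against Normal 3, where 4.64% and 12.1% of all genes were. Lymphocyte and NK markers summed to 1.42 and 1.91 TPM in Normal and to 43.0 to 452 TPM in the hemorrhage rats. The part of these cell types in the results for the 7 genes was not tested.

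**Figure D4:**
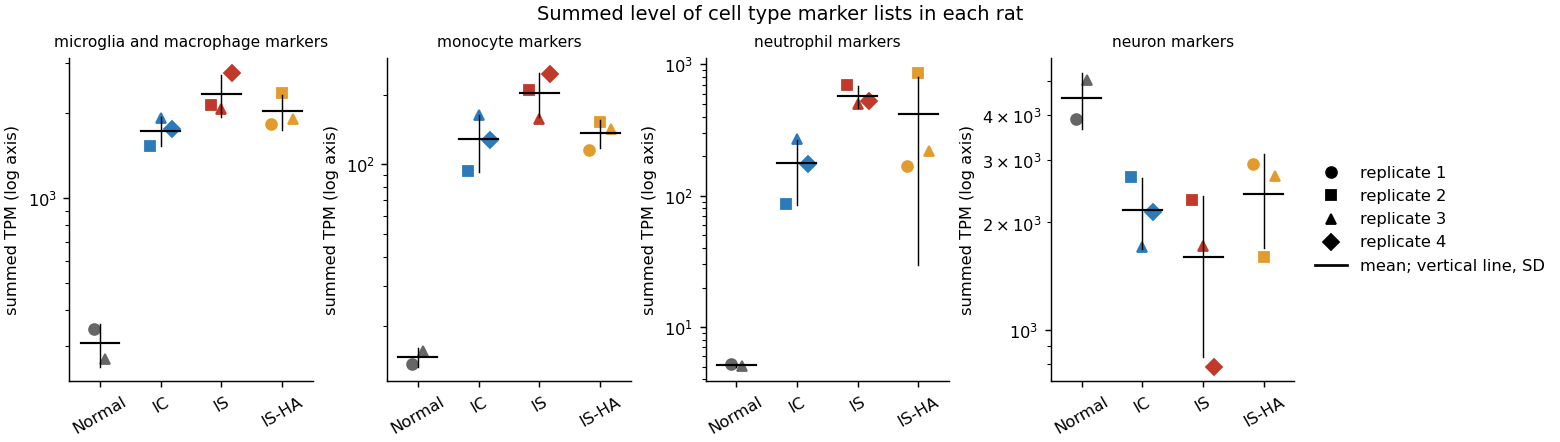
Summed TPM of 4 lists of cell type markers in each rat, on log axes, by group; points are rats, horizontal lines means and vertical lines the SD. Microglia and macrophage, monocyte and neutrophil markers are higher, and neuron markers lower, in every hemorrhage rat than in both Normal rats.

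The members were also set against the microglia and macrophage markers. Fcgr3a stood at 7.74 and 9.74 TPM per 1000 TPM of these markers in Normal and at 53.2 to 93.3 in the hemorrhage rats. Fcgr2b went from 3.09 and 5.56 to between 9.47 and 20.1, and Fcer1g from 34.3 and 35.6 to between 66.6 and 119. Fcgr1a (11.9 and 17.5 in Normal, 18.3 to 29.9 after hemorrhage) and Syk (6.14 and 8.20 in Normal, 9.21 to 24.7 after hemorrhage) had the lowest hemorrhage rat just above the higher Normal rat. Sirpa went from 426 and 616 to between 49.7 and 122, and Cd47 from 239 and 436 to between 16.0 and 55.9. These are descriptions on a scale that the markers themselves set.

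The other genes of these pathways were examined as 5 lists, with 87 genes tested. In IS against Normal, 58 of the 87 were called higher and 4 lower, where 24.8% and 24.2% of all genes were. In IC against Normal it was 46 higher and 1 lower (13% and 4.64% of all genes), and in IS-HA against Normal 54 higher and 1 lower (19.5% and 12.1%). Of the 87, 10 passed the filter on low counts only with the hemorrhage rats, since the Normal rats held too few counts, so they could hardly be called lower, and 9 of the 10 were among the 58. Of the remaining 77, 49 were called higher and 4 lower in IS against Normal, where 21.7% and 27% of all genes that passed in the Normal rats were. In IC against Normal 38 of the 77 were called higher and 1 lower (10.6% and 5.19% of all genes that passed in the Normal rats), and in IS-HA against Normal 45 and 1 (16.8% and 13.5%). The counts over the lists moved with IS-HA replicate 2 and with the block. In some lists they also fell when a Normal rat was left out. Those fits keep 1 Normal rat, so their counts are not given here. Without IS-HA replicate 2, edgeR called 54 of 88 list genes higher and 4 lower in IC against Normal (3051 and 2240 of all 15897 genes), 62 and 7 in IS (4807 and 4646) and 55 and 1 in IS-HA (2808 and 1681). With the replicate number as a block it called 35 of 87 higher and 0 lower in IC (824 and 15 of all 15742 genes), 47 and 1 in IS (1879 and 908) and 47 and 1 in IS-HA (1752 and 664). All 7 members passed in the Normal rats.

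Of 14 other Fc receptors listed, 5 were tested, of which Fcrla and Fcrlb passed the filter only with the hemorrhage rats. The other 3 were called higher in IS against Normal, as were 21.7% of all genes that passed in the Normal rats. The median log2 fold change of the 3 was 4.72, against -0.09 for all genes that passed in the Normal rats. Another 9, among them the IgE receptor chains Fcer1a and Ms4a2, had too few counts. Fcrl2, an Fc receptor-like protein, was at 8.57 ± 2.26 TPM in Normal and 333 ± 202 TPM in IS (log2 fold change 5.32 ± 0.94 SE, edgeR adjusted p = 0.00124). Fcgr2a had a log2 fold change of 4.72 ± 0.52 (adjusted p = 9.6e-05). Fcrlb had 0 counts in both Normal rats, 2 to 16 in IC, 14 to 22 in IS and 6 to 18 in IS-HA.

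Of 28 ITAM adaptors and kinases tested, 16 were called higher and 1 lower in IS against Normal, where 24.8% and 24.2% of all genes were. Without the 2 that passed the filter only with the hemorrhage rats, 14 of 26 were called higher and 1 lower. Of all genes that passed in the Normal rats, 21.7% and 27% were. The median log2 fold change of the 26 was 0.97, against -0.09 for all genes that passed in the Normal rats. Tyrobp, the ITAM adaptor that serves receptors such as Trem2, went from 26.7 ± 8.90 TPM in Normal to 1116 ± 442 TPM in IS (log2 fold change 5.41 ± 0.66 SE, edgeR adjusted p = 1.6e-04), the same direction as Fcer1g. Hcst, an adaptor that engages PI 3-kinase, had 1 and 4 counts in the Normal rats and 59 to 88 counts in IS, and is one of those 2. Cbl, a ubiquitin ligase that limits this signalling, fell from 13.1 ± 4.91 to 3.22 ± 0.526 TPM (log2 fold change -2.0 ± 0.38, adjusted p = 0.00203), a call lost with the replicate number as a block (-1.68, adjusted p = 0.0566).

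Of the 24 genes of the actin and engulfment machinery, 15 were called higher and 2 lower in IS against Normal. Of all genes, 24.8% and 24.2% were. The median log2 fold change of the 24 was 1.00, against 0.02 for all genes tested. The unconventional myosin Myo1f (5.24 ± 0.40 SE), the hematopoietic GTPase Rac2 (5.00 ± 0.52) and the Arp2/3 subunit Arpc1b (4.97 ± 0.62) rose most, with edgeR adjusted p of 3.1e-05, 7.7e-05 and 1.9e-04. Elmo1, which with Dock proteins activates Rac, fell from 82.5 ± 6.55 to 27.7 ± 4.83 TPM (log2 fold change -1.56 ± 0.22, adjusted p = 3.9e-04). Pak1, a kinase downstream of Rac that neurons hold as well, fell by 0.87 on the log2 scale (adjusted p = 0.0257), a call lost in 7 of 21 alternatives. These were the fits without Normal replicate 3 (edgeR adjusted p = 0.209), IS replicate 3 (0.0656) or IS replicate 4 (0.0669), with the replicate number as a block (0.152), with library size alone (0.0737), with the 2 groups alone (0.0504) and with limma on log2(TPM + 1) (0.0591).

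Of 19 inhibitory receptors and phosphatases tested, 16 were called higher and 1 lower in IS against Normal, where 24.8% and 24.2% of all genes were. Without the 5 that passed the filter only with the hemorrhage rats, 11 of 14 were called higher and 1 lower. Of all genes that passed in the Normal rats, 21.7% and 27% were. The median log2 fold change of the 14 was 2.13, against -0.09 for all genes that passed in the Normal rats. These 5 include the next 3 genes. Lilrb4, a receptor with ITIMs, had 0 and 3 counts in the Normal rats and 1190 to 1897 counts in IS. Clec12a, an ITIM receptor for uric acid crystals, had 9 and 12 counts in the Normal rats and 593 to 739 in IS, and Pirb, a receptor for MHC class I, had 13 and 23 counts in the Normal rats and 523 to 1286 in IS. Of the phosphatases that these receptors and Sirpa recruit, Ptpn6 (SHP-1) was at 4.37 ± 0.470 TPM in Normal and 71.0 ± 14.9 TPM in IS, and Ptpn11 (SHP-2) fell from 175 ± 2.76 to 105 ± 14.0 TPM (log2 fold change -0.73 ± 0.23, edgeR adjusted p = 0.0216). The call for Ptpn11 was lost in 7 of 21 alternatives, without Normal replicate 1 (0.101), Normal replicate 3 (0.0801), IS replicate 2 (0.0573) or IS replicate 4 (0.0609), with the replicate number as a block (0.243), with library size alone (0.0686) and with limma on log2(TPM + 1) (0.0602).

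The list of ligands and partners of Cd47 and Sirpa was broad and also held Qpctl, Calr, Lrp1 and Cd24. Of its 11 genes tested, 6 were called higher and 0 lower in IS against Normal. Of all genes, 24.8% and 24.2% were. The median log2 fold change of the 11 was 1.07, against 0.02 for all genes tested. One of the 11, Itgb3, passed the filter only with the hemorrhage rats and was not called, and over the other 10 the median was also 1.07. Thbs1, thrombospondin-1, a secreted ligand of Cd47, went from 0.787 and 1.87 TPM in Normal to between 33.9 and 198 TPM in IS (log2 fold change 6.43 ± 0.97, edgeR adjusted p = 5.5e-04). Without IS replicate 4 its log2 fold change was 5.60, and without Normal replicate 3 it was 7.10. Fyb1 and Skap2, adaptors that act together and of which Skap2 binds Sirpa, rose by 2.99 ± 0.43 and 2.45 ± 0.29 (adjusted p = 4.2e-04 and 1.6e-04). At 0 TPM in every rat were Sftpa1 and Sftpd, the surfactant proteins that bind Sirpa in the lung.

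In IS against IC and in IS-HA against IS, edgeR called 0 of the 87 genes. At an unadjusted p under 0.05, 33 were higher and 3 lower in IS than in IC, where 10.5% and 11.7% of all genes were. In IS-HA against IS, 4 were higher and 10 lower at that level, where 5.58% and 3.36% of all genes were. At the same level, 9 of 88 were higher and 30 lower without IS-HA replicate 2. With voom 9 of 87 were higher and 29 lower. The shares of all genes in these 2 fits are not given here. DESeq2 called 12 higher and 1 lower in IS against IC (2.98% and 3.21% of all genes) and 0 in IS-HA against IS (0.318% and 0.133%). The voom method called 20 higher and 2 lower in IS against IC (6.26% and 5.7% of all genes) and 2 higher and 1 lower in IS-HA against IS (1.69% and 1.04%). Without IS-HA replicate 2, edgeR called 15 of 88 higher and 3 lower in IS against IC (6.38% and 7.71% of all genes), and 3 higher and 1 lower in IS-HA against IS (3.4% and 0.975%). limma on log2(TPM + 1) called 0 in both.

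**Figure D5:**
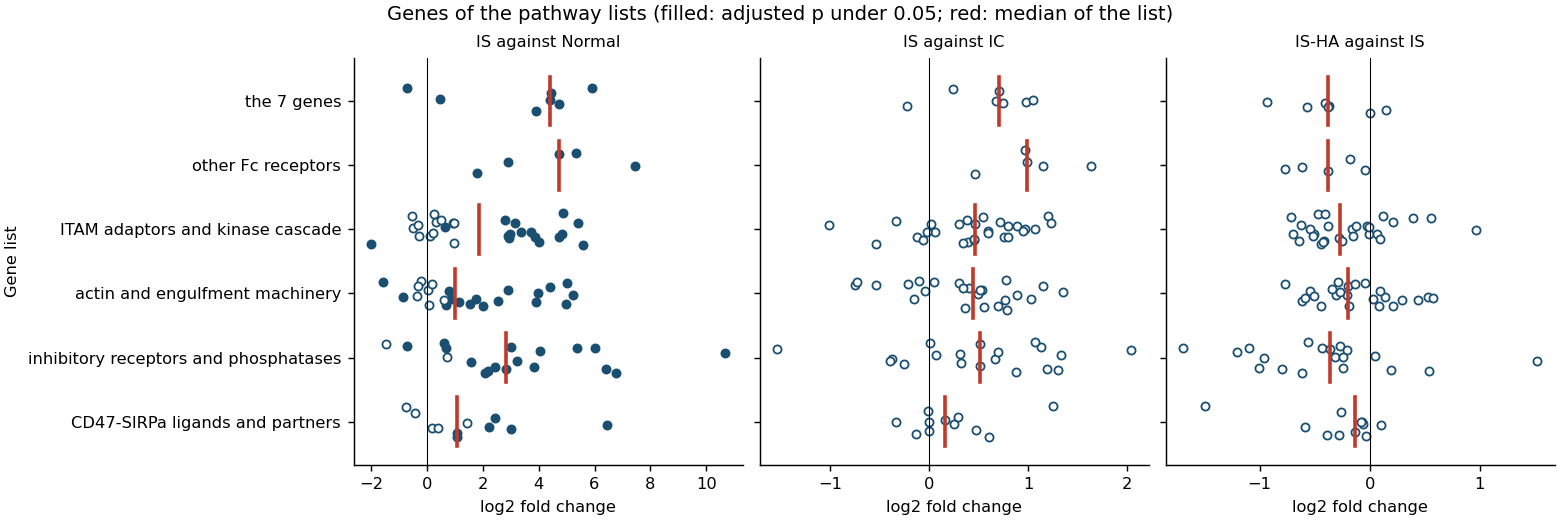
Log2 fold changes of the 7 genes and of the genes of the 5 pathway lists in 3 comparisons; each point is a gene, filled where the adjusted p was under 0.05, and red lines are medians of the list. In IS against Normal the medians over all genes tested run from 1.00 for the actin and engulfment machinery to 4.72 for the other Fc receptors, and in the panels of IS against IC and IS-HA against IS no point is filled.

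The genes whose levels were most like each member were sought among all genes tested by Pearson's r of log2 CPM over the 11 rats, which is a description since the groups differ and libraries differ in depth. Fcgr1a was close to C3h15orf48 (r = 0.996) and Arhgap45 (0.995). Fcer1g was nearest to Cmklr1, Tyrobp and Was (0.997 each) and Syk to Elk3 (0.998), Sipa1 and Cd300a (0.997 each). Fcgr3a was nearest to Pimreg (0.997), Clec12a and Timp1 (0.995 each). Fcgr2b was nearest to Espl1 (0.995), Depdc1 (0.994) and H19 (0.993).

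Sirpa had no neighbour as close, with Xxylt1 at 0.949, Zfp746 at 0.932 and Srsf4 at 0.929. Cd47 was nearest to Vamp7 (0.987), Fbxo11 (0.981) and G3bp2 (0.979). Over the 9 hemorrhage rats alone, the nearest gene of each member was another one, such as Ehd1 for Fcer1g (0.998) and Birc5 for Fcgr3a (0.988).

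Among the members themselves, over the 9 hemorrhage rats, Fcer1g correlated with Syk (r = 0.921) and Fcgr1a (0.916), and Fcgr1a with Fcgr3a (0.898). Fcgr2b was at 0.573 to 0.680 with the other 4 genes of the receptor arm, and Fcgr3a was at 0.572 with Syk. Cd47 ran opposite to Fcgr3a (-0.876) and Fcgr1a (-0.844), and Sirpa and Cd47 were at 0.167. The values for Sirpa turned on IS-HA replicate 2. Without that rat, a check added after the data were seen, Sirpa was at -0.737 with Cd47 and at 0.591 to 0.955 with the 5 genes of the receptor arm (-0.158 to 0.604 with it), and Cd47 was at -0.749 with Fcgr3a and -0.824 with Fcgr1a. There Fcgr2b was at 0.610 to 0.874 with the other 4 genes, Fcgr3a at 0.821 with Syk, and Fcer1g at 0.978 with Syk and 0.909 with Fcgr1a. Without IS replicate 4, Fcer1g was at 0.799 with Syk and Sirpa at -0.362 to 0.354 with the receptor arm. Rats of 3 groups enter these values, which carry no test.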

How the data were processed

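Total RNA of the ipsilateral striatum (the matching region in Normal rats) was made into stranded poly(A) libraries and sequenced by the authors. The submitters' processing notes name fastp 0.20.0, HISAT2 2.1.0, SAMtools 1.9, featureCounts and the build mRatBN7.2, without their order; annotation version and strand settings are not given in the sources used here. The deposited table of the authors holds raw counts of reads as whole numbers, and TPM, in which counts are scaled by gene length and to a fixed sum per rat. Columns were matched to rats by the library names in the labels, with 0 left over.

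Counts were filtered with filterByExpr, normalized by TMM and tested with the quasi-likelihood test of edgeR 4.0.16 in R 4.3.3, with 1 fit over the 4 groups and Benjamini-Hochberg adjustment over 15742 genes. Ratios of TPM (pseudocount 0.1) were tested by exact permutation in SciPy 1.17.1. Alternatives were DESeq2 1.42.0 (Wald test, and its size factors in edgeR), library size alone, limma 3.58.1 (voom with quality weights, and log2(TPM + 1)), other filters, each rat left out in turn, fits of 2 groups alone, TMM factors computed with 18 hemoglobin and mitochondrial genes removed, a block on the replicate number, and an absolute log2 fold change of at least 1. Code was tested on simulated data. The members, lists and tests were chosen with earlier results of these data known. Named are all members, the 3 genes of each pathway list with the highest log2 fold change among those called higher in IS against Normal and the 2 lowest among those called lower, and the 3 genes most like each member, except 1 gene that is not reported here. Ptpn6, Fcgr2al1 and the Sirpa paralogs were named after their values were seen. Total counts of 6701301 to 18817645 limit the precision of low values, and floors cover counting error only. P-values measure the spread between these rats.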

Additional observations from a re-analysis of the deposited data

How the results depend on the processing

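Of 882 alternative values of the members' 42 fold changes, 835 kept their direction and side of the threshold, 23 lost the call, 7 gained it and 17 changed sign. Fcgr1a, Fcgr2b, Fcgr3a, Fcer1g and Syk were called against Normal in every alternative. The changes of sign were among differences that were not called. For Fcgr3a in IS-HA against IS, the log2 fold change of 0.00 became -0.02 with DESeq2's size factors, -0.03 with library size alone, -0.02 with DESeq2's Wald test, -0.48 with voom, -0.09 with limma on log2(TPM + 1) and 0.00, just below 0, without a filter, and ran from -0.52 to 0.22 with a rat left out. For Cd47 in IS-HA against IC it became 0.06 with voom. With a rat left out, the ranges were -0.27 to 0.14 for Cd47 and -0.10 to 0.59 for Fcgr1a and -0.16 to 0.36 for Syk in IS-HA against IC, -0.05 to 0.37 for Cd47 in IS-HA against IS and -0.03 to 0.19 for Sirpa in IS-HA against Normal. In IS against IC, the 0 members called became 1 with DESeq2's Wald test, 2 with voom and 0 to 3 with a rat left out, the 3 without IS-HA replicate 2. The cause was not tested. The ratios had log2 differences of -1.55 to -1.08 (Fcgr2b to Fcgr3a), 0.70 to 0.96 (Fcgr2b to Fcgr1a), -1.86 to -1.58 (Fcer1g to Fcgr3a) and 0.69 to 1.03 (Sirpa to Cd47) with a rat left out, where 1 Normal rat allows no p under 0.2. Fcgr2b to Fcgr1a was 0.38 with a pseudocount of 1 TPM. Same-numbered IS and IC rats had correlations of their deviations from -0.34 to 0.356, and IS replicates 3 and 4 correlated more with another number, so the numbers were not taken to pair rats. With the replicate block, 5 members were called in each comparison with Normal and 0 in the others, where 824, 1879 and 1752 of all 15742 genes were called higher and 15, 908 and 664 lower in IC, IS and IS-HA against Normal. Of the 87 pathway genes, DESeq2's Wald test called 50, 61 and 54 higher and 2, 6 and 5 lower in IC, IS and IS-HA against Normal. Of all 15742 genes it called 2452, 4195 and 3387 higher and 1551, 4223 and 2674 lower. Of the 87, voom called 55, 63 and 59 higher and 4, 7 and 4 lower. Over all genes it called 3322, 4861 and 3589 higher and 2889, 4745 and 2919 lower. limma on log2(TPM + 1) called 48, 57 and 52 of the 87 higher and 0, 2 and 1 lower, and its counts over all genes are not given here. The 87 include the 10 genes that passed the filter only with the hemorrhage rats. Over the alternatives, the genes called higher and lower ran from 799 to 3322 and from 15 to 2889 in IC against Normal (2040 and 730 as reported), from 1879 to 4861 and from 908 to 4745 in IS against Normal (3908 and 3802), from 1228 to 3815 and from 352 to 2919 in IS-HA against Normal (3067 and 1898), from 0 to 1015 and from 0 to 1226 in IS against IC (0 and 0), from 0 to 540 and from 0 to 164 in IS-HA against IS (1 and 0) and from 0 to 10 and from 0 to 11 in IS-HA against IC (0 and 0). With library size alone the median log2 fold change of all genes against Normal stood at 0.14 to 0.18, against 0.00 to 0.06 as reported. With 2 Normal rats and 3 rats per hemorrhage group, differences the size of those between IS and IC had wide intervals.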
